A study of Mus musculus with 1 sample.

Results

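The genes of the AMPA and NMDA receptor subunits were followed through the cell classes of the newborn mouse cortex. The rows were chosen by gene symbol, and 9 genes of the 51912 listed were taken, namely Gria1, Gria2, Gria3 and Gria4 for AMPA receptors and Grin1, Grin2a, Grin2b, Grin2d and Grin3a for NMDA receptors. The data were 1 sc-RNA Seq library from the cerebral cortex of wildtype (WT) C57BL/6 mice at postnatal day 0 (P0), made with 10x Genomics 3′ chemistry after papain digestion. The study set such tissue beside a SERPINA3 knock-in, which was not analysed here. The library held 11062 cells and 90346034 unique molecular identifiers (UMIs, each standing for 1 captured transcript), with a median of 7196.5 UMIs in a cell and no cell barcode occurring more than once.

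AMPA and NMDA receptors are ion channels opened by glutamate, the main excitatory transmitter of the cortex, and each channel is built from 4 subunits. AMPA receptors carry the fast current. The GluA2 subunit encoded by Gria2 keeps calcium out of most of them once its messenger RNA has been edited. NMDA receptors need the GluN1 subunit of Grin1, pass calcium, and differ in kinetics and magnesium block according to the Grin2 or Grin3 subunit that joins it, with Grin2b common before birth and Grin2a gaining during postnatal life.

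The codon that is edited in Gria2 lies in the pore loop. It is shown here because Gria2 is set beside the other AMPA genes below, as its share of the AMPA subunit UMIs of a class. The lines give 51 coding bases of the transcript strand from GENCODE M21 on GRCm38, with capitals for the codon of the pore residue. In the AMPA genes this codon stands for glutamine in the genome, and in Gria2 transcripts the editing enzyme ADARB1 recodes it to arginine.
Gria1: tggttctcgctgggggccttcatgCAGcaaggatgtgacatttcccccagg
Gria2: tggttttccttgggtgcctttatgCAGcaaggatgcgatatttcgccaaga
Gria3: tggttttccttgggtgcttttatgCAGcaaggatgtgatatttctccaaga
Gria4: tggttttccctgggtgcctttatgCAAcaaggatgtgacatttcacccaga
The codon is number 600 of Gria1 (chr11:57243094-57243096, plus strand), 607 of Gria2 (chr3:80706911-80706913, minus strand), 612 of Gria3 (chrX:41610265-41610267, plus strand) and 608 of Gria4 (chr9:4464137-4464139, minus strand). In all 4 it lies in exon 11 of the transcript used. Over the window, 41 bases of Gria1, 48 of Gria3 and 45 of Gria4 were the same as in Gria2.

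In Grin1 and the Grin2 genes the matching codon stands for asparagine, the residue that sets magnesium block and calcium flow.
Grin1: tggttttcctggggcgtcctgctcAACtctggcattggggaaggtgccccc
Grin2a: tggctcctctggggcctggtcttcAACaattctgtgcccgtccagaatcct
Grin2d: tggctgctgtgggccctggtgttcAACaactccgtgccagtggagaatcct
It is codon 637 of Grin1 (chr2:25297386-25297388), 614 of Grin2a (chr16:9653561-9653563) and 639 of Grin2d (chr7:45854393-45854395), all on the minus strand. No window was printed for the other NMDA genes. The counts came from the 3′ ends of transcripts, so neither the codon nor its editing was read in these data.

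Cells were placed in classes by UMIs of marker genes, none of which is a receptor subunit. A cell needed at least 2000 UMIs without mitochondrial genes, which 8447 cells had. Of these, 6598 fell in 1 class, 14 met more than 1 gate and were left out, and 1835 met none, 975 of them excitatory neurons whose layer could not be set. The layer neurons were 5509 excitatory cells, with 3001 in layer II/III, 490 in layer IV, 703 in the upper layers without either label, 296 in layer V, 977 in layer VI and 42 in layer VIb. The other classes were 196 newborn neurons with an Eomes UMI, 167 interneurons of the medial ganglionic eminence (MGE) type, 132 of the caudal ganglionic eminence (CGE) type, 69 interneurons of neither type, 127 oligodendrocyte precursors (OPCs), 249 non-dividing and 72 dividing progenitors, 21 striatal-type inhibitory neurons and 20 Cajal-Retzius cells. All names rest on markers alone, so each class is called by its gate. The gate for non-dividing progenitors took radial glia or astrocytes and did not tell them apart. Genes outside the gates, picked after their values had been seen, went with the gates. Lhfpl3 reached 501 CPM (UMIs per 1000000) in OPCs, Mt3 reached 3578 CPM in non-dividing progenitors and Sox5 830 CPM in layer VI neurons, each the highest of any class.

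A level is given below as CPM, the UMIs of a gene summed over the cells of a class and scaled to 1000000 UMIs of that class without mitochondrial genes. With 1 library there is no replicate error and no test between conditions. The brackets hold 95% exact intervals (Poisson for levels, binomial for shares and ratios) and cover counting error only. The 3′ tags count 1 end per transcript, so levels of different genes were compared as tags and not per length. A class of 36 vascular and microglial cells, which should lack these receptors, was taken as a guide to free RNA. Its median depth was 8674.5 UMIs, and the guide was not adjusted for shallower or deeper classes. Doublets in it were not excluded. Its levels were 72.3 CPM (49.8 to 102) for Gria2, 13.1 CPM (4.82 to 28.6) for Grin2b and at most 4.38 CPM for each of the other 7 genes.

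**Figure D1:**
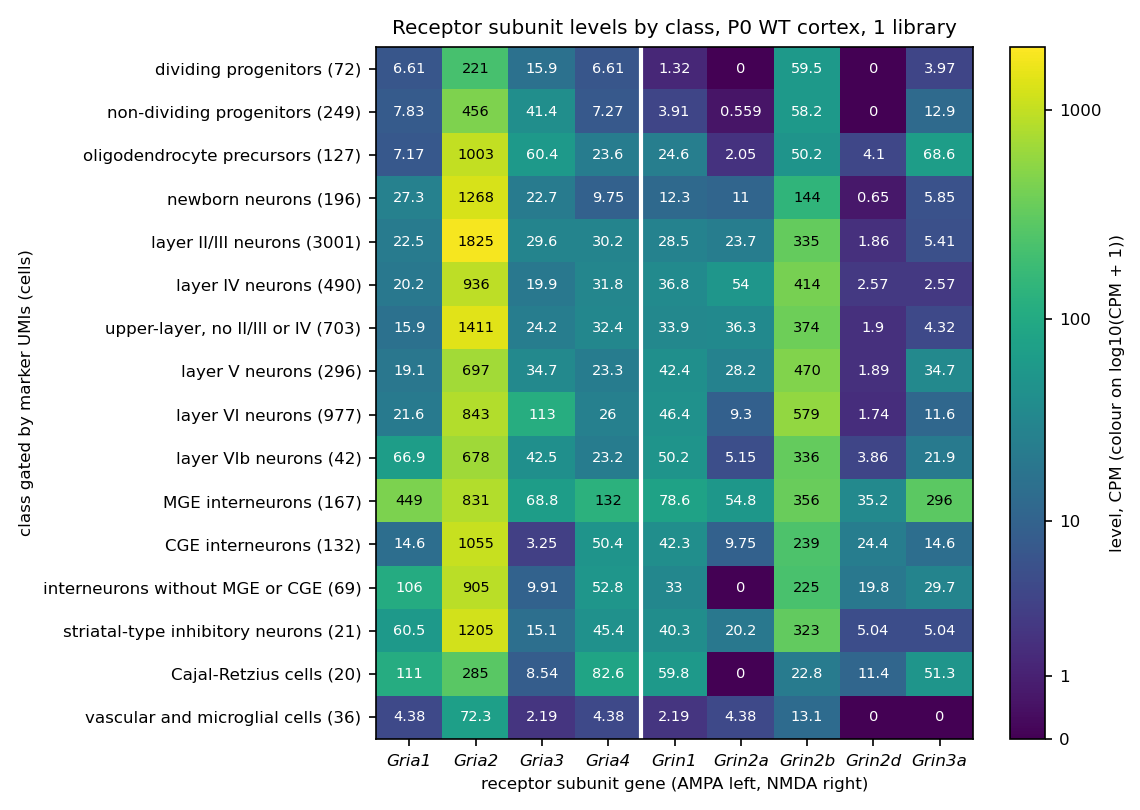
Levels of the 9 subunit genes (columns) in the 16 classes (rows, with the number of cells), printed as CPM and coloured on a log10(CPM + 1) scale. Gria2 is the highest gene in every row, and MGE interneurons hold the highest Gria1 (449 CPM) and Grin3a (296 CPM).

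Gria2 was the main AMPA gene of the newborn cortex. In the whole library it gave 111342 UMIs, found in 93.7% of cells, against 3770 for Gria3, 3109 for Gria1 and 2903 for Gria4. Its level ran from 221 CPM (189 to 257) in dividing progenitors and 456 CPM (425 to 489) in non-dividing progenitors to 1825 CPM (1809 to 1842) in layer II/III neurons. These levels were 3.05 times (2.09 to 4.58) and 6.31 times (4.46 to 9.23) that of the vascular and microglial cells in dividing and non-dividing progenitors. Newborn neurons held 1268 CPM (1213 to 1326), and OPCs, which are glial cells, held 1003 CPM (942 to 1068), more than layer V or layer VI neurons. Layer IV neurons stood at 936 CPM (914 to 958), layer VI at 843 CPM (825 to 861), layer V at 697 CPM (675 to 720) and layer VIb at 678 CPM (621 to 738). Ordered by level, 6 of the 14 neighbouring pairs among the 15 classes other than vascular and microglial cells differed beyond their counting interval. Layer V and VIb neurons did not, nor did layer VI neurons and MGE interneurons.

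Gria1, which encodes the subunit best known from activity-dependent plasticity, was highest in MGE interneurons and low in most layer neurons, with levels between these in layer VIb and in some small classes described below. Layer neurons held 21.4 CPM (20.2 to 22.7), with layers II/III, IV, V and VI between 19.1 and 22.5 CPM. Layer VIb neurons, with 66.9 CPM (50.0 to 87.7), were 3.1 times (2.25 to 4.22) the level of layer VI. They were also deeper, with a median of 19227 UMIs against 9612, and the part of depth was not tested. MGE interneurons held 449 CPM (412 to 488), against 14.6 CPM (6.69 to 27.8) in CGE interneurons. OPCs at 7.17 CPM and non-dividing progenitors at 7.83 CPM were 1.64 times (0.311 to 16.1) and 1.79 times (0.410 to 16.2) the vascular and microglial cells, so Gria1 was not detectable above free RNA there. Gria3 followed another order. Its highest level was in layer VI at 113 CPM (106 to 119), which was 3.25 times (2.77 to 3.82) layer V and 4.20 times (3.86 to 4.57) the upper layers together. OPCs held 60.4 CPM (46.0 to 77.9) of Gria3, 1.42 times (1.08 to 1.83) the layer neurons, and CGE interneurons had 2 UMIs in all, or 3.25 CPM (0.394 to 11.7). Gria4, the subunit common in fast-spiking interneurons later in life, reached 132 CPM (112 to 154) in MGE and 50.4 CPM (34.2 to 71.5) in CGE interneurons and 29.3 CPM (27.9 to 30.7) in layer neurons.

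The makeup of the AMPA tags of MGE interneurons differed from that of the other large classes. Gria2 made up 93.6% (93.4 to 93.7) of all AMPA subunit UMIs in layer neurons, 95.5% (94.5 to 96.4) in newborn neurons, 91.7% (89.9 to 93.3) in OPCs and 93.9% (91.9 to 95.6) in CGE interneurons. In MGE interneurons its share was 56.1% (53.8 to 58.4), and Gria1 took 30.3% (28.2 to 32.5). Within layer VI neurons Gria3 took 11.2% (10.6 to 11.9), beside 1.55% (1.44 to 1.67) in layer II/III. More Gria1 than Gria2 UMIs were seen in 34 of 167 MGE interneurons, 20.4% (14.5 to 27.3), in 0 of 132 CGE interneurons, which allows up to 2.76%, and in 6 of 5509 layer neurons. It was also seen in 3 of 20 Cajal-Retzius cells, where Gria2 made up 58.5% (50.7 to 66.0) of AMPA tags, and in 6 of 69 interneurons of neither type. Adarb1, whose enzyme edits Gria2, was at 47.0 CPM (45.2 to 48.8) in layer neurons, 48.3 CPM (36.8 to 62.3) in MGE interneurons, 32.8 CPM (22.4 to 46.3) in OPCs and 6.15 CPM (3.07 to 11) in non-dividing progenitors. The vascular and microglial cells held 13.1 CPM (4.82 to 28.6) of Adarb1. The progenitor level did not exceed this, and the OPC interval overlapped it.

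**Figure D2:**
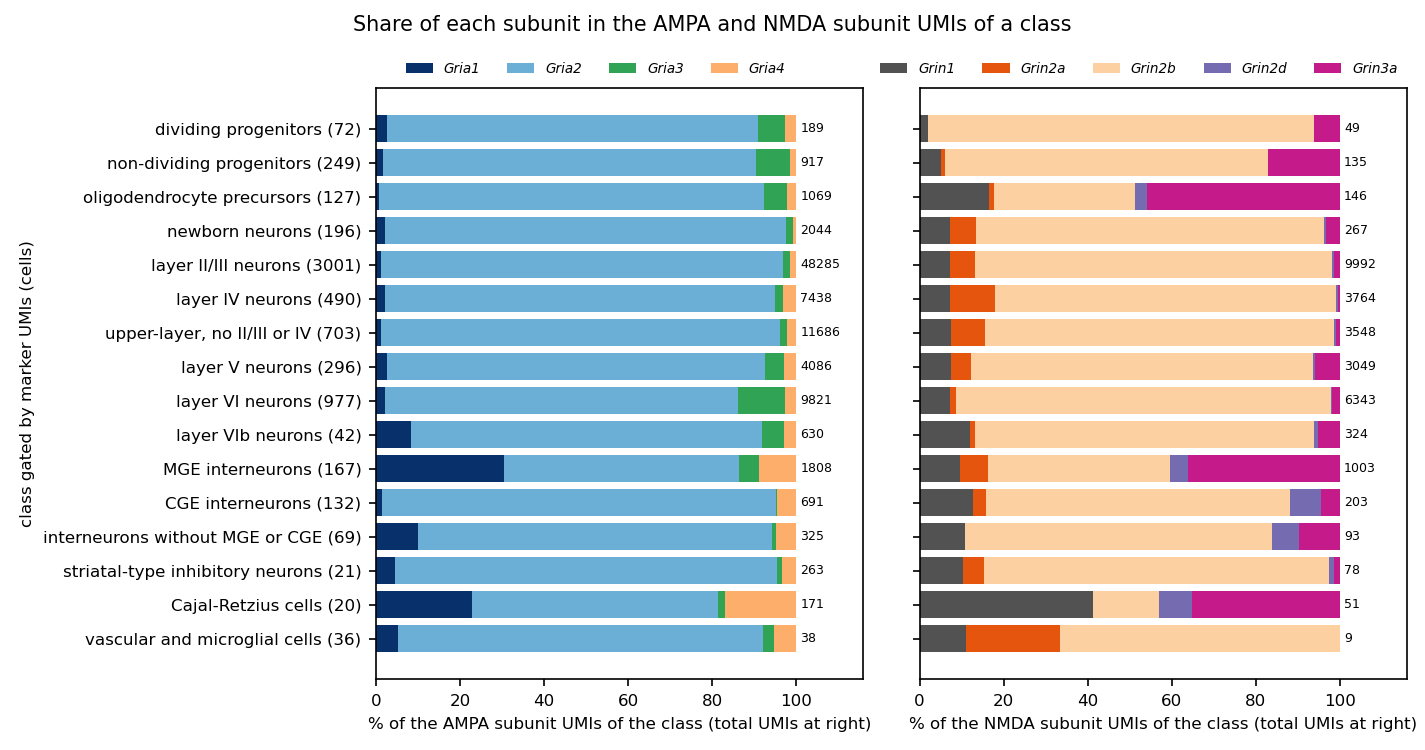
Share of each subunit in the AMPA (left) and NMDA (right) subunit UMIs of a class, as stacked bars in percent, with the total UMIs of the family at the right of each bar. Gria1 takes 30.3% of the AMPA bar of MGE interneurons, and Grin3a takes 36.1% of the NMDA bar of MGE interneurons and 45.9% of that of OPCs.

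Among the NMDA genes, Grin2b took the most tags in all neurons with a layer. Its 33099 UMIs in the library compared with 3135 for Grin1, 2456 for Grin2a, 1537 for Grin3a and 277 for Grin2d. Grin1, the subunit that every NMDA receptor needs, thus had fewer tags than Grin2b, and 3′ capture of different genes need not be equal. Grin1 stood at 3.91 CPM (1.57 to 8.06) in non-dividing progenitors, 12.3 CPM (7.43 to 19.3) in newborn neurons, 35.0 CPM (33.5 to 36.6) in layer neurons and 78.6 CPM (63.7 to 96.0) in MGE interneurons. OPCs held 24.6 CPM (15.7 to 36.6), a ratio of 0.701 to layer neurons whose interval (0.448 to 1.05) includes 1. The antisense gene Grin1os had 33 UMIs, few beside those of Grin1, and whether counting used the strand is not given in the sources used here.

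Grin2b rose from layer II/III to layer VI when all cells of a class were summed. It ran from 335 CPM (328 to 342) in layer II/III through 414 CPM (399 to 429) in layer IV and 470 CPM (452 to 489) in layer V to 579 CPM (564 to 594) in layer VI, and each step was beyond its counting interval. Layer VIb, at 336 CPM (296 to 379), did not follow this order. The first step also differed between cells with and without UMIs of Igfbpl1, a gene expressed in young neurons. In cells without an Igfbpl1 UMI, Grin2b was at 467 CPM in layer II/III and 393 CPM in layer IV, the reverse order. In cells with at least 2 Igfbpl1 UMIs it was at 310 and 428 CPM. The split within layers was made after the values were seen. Layer II/III cells without an Igfbpl1 UMI were also deeper, with a median of 11438.5 UMIs against 7516. The part of depth was not tested. Non-dividing and dividing progenitors were at 58.2 and 59.5 CPM and did not differ beyond counting error. OPCs, at 50.2 CPM (37.1 to 66.3), were 8.09-fold (6.12 to 10.9) below layer neurons but 3.82 times (1.63 to 10.9) the vascular and microglial cells. Grin2a, the gene that gains on Grin2b as synapses mature, was at 54.0 CPM (48.9 to 59.6) in layer IV, 2.28 times (2.0 to 2.59) layer II/III, and at 9.30 CPM (7.48 to 11.4) in layer VI. Layer V stood between at 28.2 CPM (23.9 to 33.1), 3.04 times (2.32 to 3.99) layer VI, where the ratio to the vascular and microglial cells, 2.12 (0.571 to 17.8), included 1, so the layer VI level could not be told from free RNA. MGE interneurons held 54.8 CPM (42.5 to 69.6), whose interval overlapped that of layer IV. The gap in Grin2a between layers IV and II/III lay mostly in cells with Igfbpl1. In cells without an Igfbpl1 UMI, layer IV held 61.9 CPM and layer II/III 52.8 CPM. In cells with at least 2 Igfbpl1 UMIs they held 51.3 and 18.4 CPM. The 3 UMIs of Grin2a in OPCs and progenitors together did not exceed the level of free RNA.

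Grin2d was higher in MGE and CGE interneurons than in layer neurons, and Grin3a was highest in MGE interneurons, followed by OPCs and Cajal-Retzius cells, which did not differ from each other beyond counting error. Grin2d, which gives slow channels with little magnesium block, was at 35.2 CPM (25.5 to 47.4) in MGE and 24.4 CPM (13.6 to 40.2) in CGE interneurons, against 1.97 CPM (1.62 to 2.37) in layer neurons. No pair of neighbouring classes in its order differed beyond the interval. Grin3a encodes a subunit that lowers calcium flow and magnesium block. Its level was 296 CPM (267 to 328) in MGE interneurons, 68.6 CPM (53.2 to 87.1) in OPCs, 34.7 CPM (29.8 to 40.1) in layer V and 8.93 CPM (8.17 to 9.75) in layer neurons together. OPCs were thus 7.68 times (5.86 to 9.93) the layer neurons, and layer V was 2.98 times (2.34 to 3.80) layer VI. Vascular and microglial cells had no Grin3a UMI, where 3 counts would be 6.57 CPM. In OPCs Grin3a made up 45.9% (37.6 to 54.3) of NMDA tags and Grin2b 33.6% (26.0 to 41.8), against 1.87% (1.71 to 2.03) and 84.7% (84.3 to 85.2) in layer neurons. Grin2c and Grin3b, the NMDA genes not among the 9, had 20 and 26 UMIs in the library.

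Shares of cells with a UMI depend on depth, so each cell was also thinned to 2000 UMIs. At that depth Gria1 was found in 59.9% (52.0 to 67.4) of MGE interneurons and 4.55% (1.69 to 9.63) of CGE interneurons, and without thinning in 89.8% and 6.06%, at median depths of 6427 and 4620.5 UMIs. Grin3a was found in 27.5% (20.9 to 35.0) of thinned MGE interneurons, 15.7% (9.89 to 23.3) of OPCs and 1.25% (0.976 to 1.58) of layer neurons, and before thinning in 41.3%, 33.9% and 5.50%. Both genes therefore stood out in single cells as well as in the summed tags. Gria3 was in 20.3% (17.8 to 22.9) of thinned layer VI neurons and 6.76% (4.18 to 10.2) of layer V neurons, although layer V cells were deeper (58.8% and 35.8% before thinning, median depths 9612 and 16451.5 UMIs). Grin2a was in 11.6% (8.93 to 14.8) of thinned layer IV neurons and 3.43% (2.81 to 4.15) of layer II/III neurons, with 49.6% and 13.1% before thinning at medians of 13808 and 7824 UMIs. The gate for layer II/III asks for no Rorb UMI and so favours shallow cells. In the 36 vascular and microglial cells, with a median of 8674.5 UMIs, Gria1, Gria4, Grin1, Grin2a, Grin2b, Grin2d and Grin3a were in 0 thinned cells, which allows up to 9.74%, Gria3 was in 2.78% and Gria2 in 16.7% (63.9% before thinning).

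**Figure D3:**
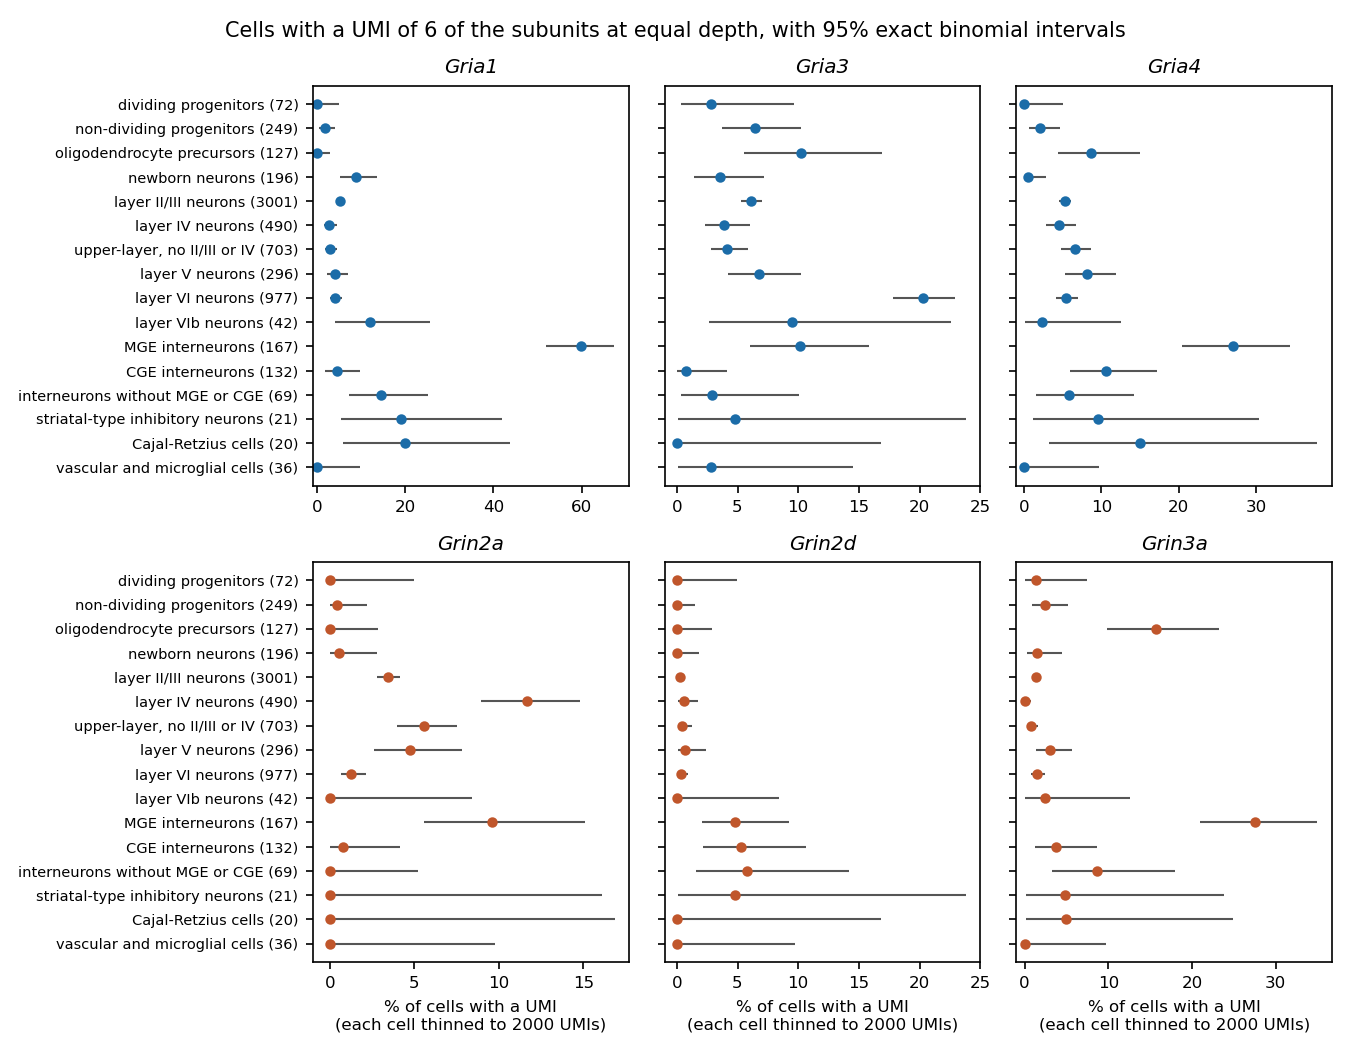
Percent of cells with at least 1 UMI of 6 of the subunits other than Gria2 and Grin2b in each class after every cell was thinned to 2000 UMIs, as points with 95% exact binomial intervals. MGE interneurons stand apart for Gria1 (59.9%), layer VI neurons for Gria3 (20.3%), and MGE interneurons (27.5%) for Grin3a, with OPCs next at 15.7%.

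The first comparison asked which subunits were higher in layer neurons than in newborn neurons. NMDA tags together went from 174 CPM (153 to 196) to 479 CPM (473 to 485), a ratio of 2.76 (2.45 to 3.13), while AMPA tags went from 1328 to 1452 CPM, a ratio of 1.09 (1.05 to 1.14). Grin2b was 2.83 times (2.48 to 3.24) higher and Grin1 2.84 times (1.81 to 4.72). Grin2a was higher by a ratio of 2.45 (1.53 to 4.22) and Gria4 by 3.0 (1.81 to 5.38). The newborn levels of Grin1, Grin2a and Gria4 had ratios to the vascular and microglial cells whose intervals included 1 and could not be told from free RNA. Gria2 had a ratio of 1.07 (1.02 to 1.12) and Gria1 of 0.784 (0.577 to 1.09). The share of Grin2b among NMDA tags was 82.8% (77.7 to 87.1) in newborn and 84.7% in layer neurons, and these intervals overlapped. Of the 7 members with at least 10 CPM on either side, 4 were at least 2-fold higher and 0 at least 2-fold lower, where 9.42% of all 9682 genes at that level were 2-fold higher and 9.48% 2-fold lower. Gria3, at 1.87, passed 2-fold in cells with at least 5000 UMIs, in thinned cells and with median-of-ratios scaling, and in thinned cells the ratio of Gria4 was 11.6, of Grin2a 8.97 and of Grin1 6.39. Before thinning, newborn neurons held 15 UMIs of Gria4, 17 of Grin2a and 19 of Grin1. The thinned ratios of these genes rest on fewer UMIs still and carry no interval, so their size is not read. On a list of 60 other genes of glutamate receptor biology, 43 were at that level, 17 of them 2-fold higher and 4 lower, with 6 of 10 AMPA auxiliary genes and 7 of 19 scaffold genes among the higher. The largest were the metabotropic receptor Grm3 at 4.64 (2.89 to 7.98), the kainate receptor partner Neto2 at 3.94 (3.26 to 4.82) and the kinase subunit Camk2b at 3.39 (2.84 to 4.08), and the lowest were Phgdh and Shmt2 of serine metabolism, 5.26-fold (3.62 to 7.44) and 2.70-fold (1.85 to 3.83) lower, and the scaffold Homer3, 2.02-fold (1.48 to 2.72) lower.

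Deep layers together held fewer AMPA and more NMDA tags than upper layers together, but single layers did not all follow. Layer IV, at 1007 CPM (985 to 1031), and layer VI, at 1003 CPM (983 to 1023), had AMPA levels that did not differ beyond counting error, and NMDA tags in layer VIb stood at 417 CPM. AMPA tags stood at 917 CPM (903 to 932) in layers V, VI and VIb and 1661 CPM (1649 to 1674) in the upper layers, a ratio of 0.552 (0.542 to 0.562). NMDA tags stood at 613 CPM (601 to 625) and 426 CPM (420 to 433), a ratio of 1.44 (1.40 to 1.47). Gria2 carried the first difference with a ratio of 0.497 (0.487 to 0.506), and Grin2b the second with 1.49 (1.45 to 1.53). Both gaps were smaller for upper-layer cells without an Igfbpl1 UMI, which held 1022 CPM of AMPA tags, 922 CPM of Gria2 and 435 CPM of Grin2b. The deep layers held 786 CPM of Gria2 and 531 CPM of Grin2b. Upper-layer cells with at least 2 Igfbpl1 UMIs, 3387 of 4194, held 1862, 1788 and 331 CPM. Deep-layer cells were not split by Igfbpl1, and its part in these ratios was not tested. Gria3 was 3.1 times (2.86 to 3.37) higher in the deep layers and Grin3a 4.23 times (3.52 to 5.09). Grin2a was lower there, with a ratio of 0.486 (0.422 to 0.558). Neither Grin3a in the upper layers nor Grin2a in the deep layers could be told from free RNA by its ratio to the vascular and microglial cells. Of 8 members with enough tags, 2 were at least 2-fold higher and 2 at least 2-fold lower, beside 4.9% and 3.4% of all genes. Both lower members lay close to the fold. Over the alternatives Gria2 ran from 0.424 to 0.522, the highest in cells with at least 5000 UMIs, and Grin2a from 0.381 to 0.532, the highest by the mean of per-cell CPM, and Grin3a came to 1.80 in thinned cells. By the levels above, Gria3 was highest in layer VI and Grin3a was higher in layer V than in layer VI, so the deep layers were not alike. Layer VIb held 21.9 CPM of Grin3a, from 17 UMIs. Of the 60 listed genes, 44 were at that level, 8 higher and 2 lower. The kainate subunit Grik3 was 17.3 times (14.3 to 21.1) higher in deep layers, Grm3 9.20 times (8.42 to 10.1) and the AMPA auxiliary Gsg1l 6.71 times (5.45 to 8.30), while Grm2 was 2.68-fold (2.23 to 3.25) and the AMPA auxiliary Cacng2 2.03-fold (1.87 to 2.20) lower.

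Within the upper layers, 457 cells without an Igfbpl1 UMI were taken as older and 3387 cells with at least 2 as younger, since Igfbpl1 is expressed in young neurons. Igfbpl1 also went with layer: 31.9% (27.7 to 36.4) of the cells called older were in layer IV and 46.8% (42.2 to 51.5) in layer II/III, against 6.76% (5.94 to 7.66) and 77.5% (76.1 to 78.9) of the cells called younger. Over all upper layers the cells without Igfbpl1 held fewer AMPA and more NMDA tags. The AMPA ratio of older to younger was 0.549 (0.534 to 0.564), from 1022 and 1862 CPM, and the NMDA ratio was 1.37 (1.31 to 1.42), from 535 and 392 CPM. Gria2 was at 922 CPM (897 to 948) in older and 1788 CPM (1774 to 1803) in younger cells, a ratio of 0.516 (0.501 to 0.531). Grin2a went the other way at 56.0 CPM (49.9 to 62.6) and 24.8 CPM (23.0 to 26.6), a ratio of 2.26 (1.98 to 2.58), which was 3.49 in thinned cells. Grin2a took 10.5% (9.38 to 11.6) of NMDA tags in older and 6.32% (5.90 to 6.77) in younger cells. Gria4 had a ratio of 1.88 (1.63 to 2.16) and passed 2-fold in thinned cells and by the mean of per-cell CPM. The same ratios were then taken within layers, a step added after the values were seen. In layer II/III (214 older and 2625 younger cells) the AMPA ratio was 0.583 (0.561 to 0.605) and the NMDA ratio 1.55 (1.46 to 1.64), with Gria2 at 0.542 (0.521 to 0.564), Grin2a at 2.86 (2.33 to 3.5) and Gria4 at 2.55 (2.13 to 3.06). In layer IV (146 and 229 cells) the AMPA ratio was 0.748 (0.706 to 0.791) and the NMDA ratio 0.964 (0.892 to 1.04), and Gria2 was lower at 0.727 (0.685 to 0.771). Grin2a at 1.21 (0.955 to 1.52) and Gria4 at 1.03 (0.746 to 1.41) had intervals there that included 1, and Grin2b was slightly lower at 0.917, with an interval (0.841 to 0.9995) that just left out 1. In the remaining upper-layer neurons (97 and 533 cells) the NMDA ratio was 1.32 (1.2 to 1.44), with Gria2 at 0.537 (0.502 to 0.574), Grin2a at 1.74 (1.27 to 2.35), Gria4 at 1.76 (1.27 to 2.42) and Grin2b at 1.28 (1.16 to 1.42). The lower Gria2 was thus seen in all 3 classes, while Grin2a and Grin2b were higher beyond counting error in the classes other than layer IV. Whether the layers differ in these ratios was not tested. Over all upper layers, 1 of 7 members was at least 2-fold higher and 0 lower, beside 3.49% and 1.99% of all genes. The older cells had a median of 12581 UMIs and the younger 8083, and the part of depth in these ratios was not tested beyond the thinning. On the list of 60 genes, 39 were at that level, with 7 higher and 0 lower, led by the AMPA auxiliary Cnih3 at 3.53 (3.1 to 4.02), Grm5 at 3.23 (2.92 to 3.56) and Grm3 at 2.42 (2.0 to 2.91).

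**Figure D4:**
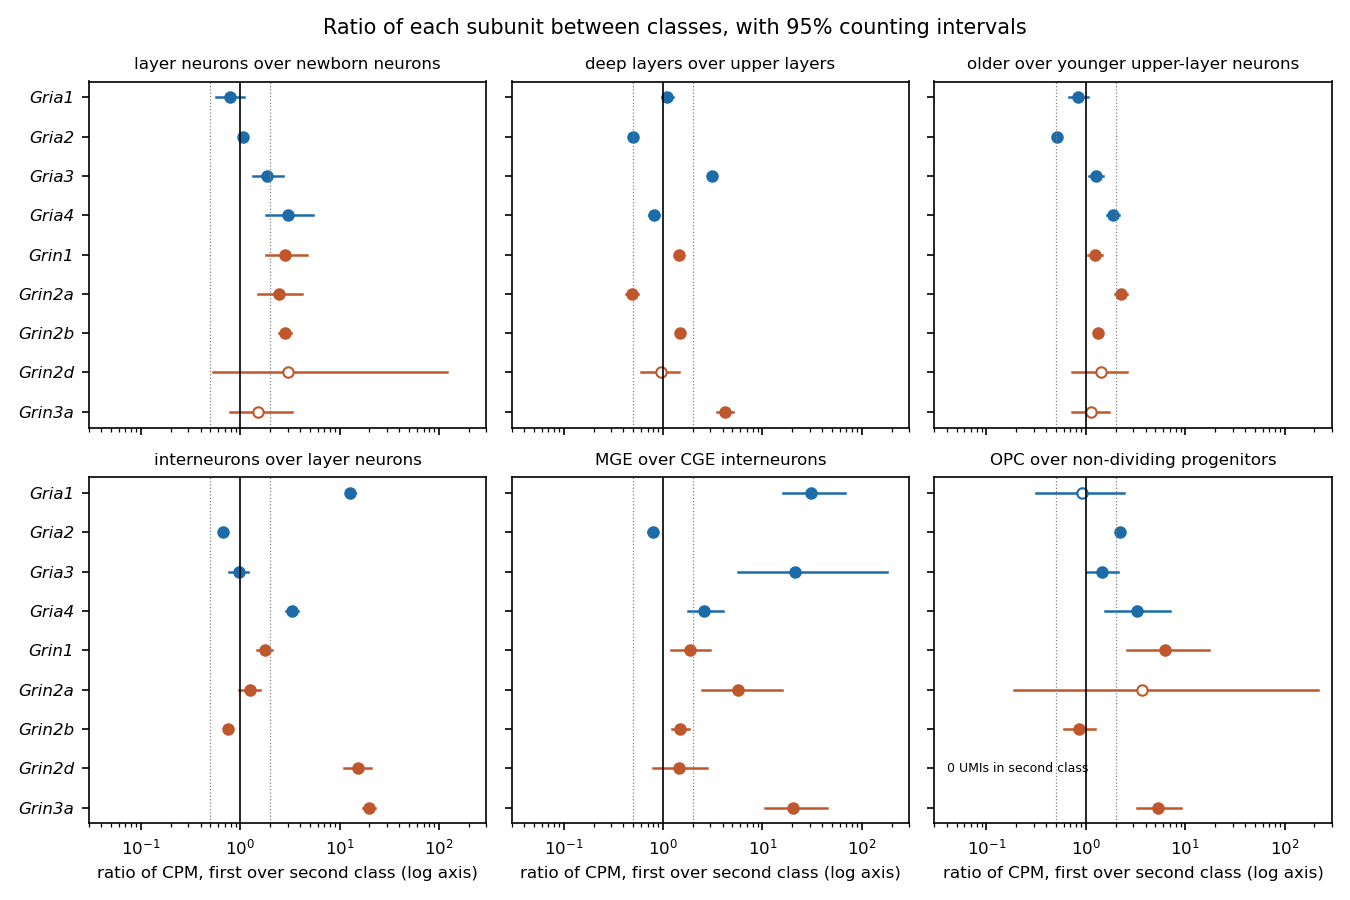
Ratio of the level of each subunit between classes in the 6 comparisons, on a log axis, with 95% counting intervals. Blue marks AMPA and orange NMDA genes, open points mark genes under 10 CPM in both classes, dotted lines mark 2-fold. Gria1, Grin2d and Grin3a lie at 12.9, 15.2 and 19.9 for interneurons over layer neurons.

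Interneurons differed from layer neurons by particular subunits more than by the family totals. The AMPA total had a ratio of 0.909 (0.875 to 0.944) and the NMDA total of 1.27 (1.2 to 1.34). Gria1 was 12.9 times (11.6 to 14.2) higher in interneurons, Grin3a 19.9 times (17.4 to 22.8), Grin2d 15.2 times (11 to 20.9) and Gria4 3.32 times (2.86 to 3.84). The layer level of Grin2d, 1.97 CPM, could not be told from free RNA, and the size of its ratio rests on it. Gria2, with a ratio of 0.666 (0.637 to 0.697), and Grin2b, with 0.749 (0.691 to 0.809), were lower. All 9 members had enough tags, 4 were at least 2-fold higher and 0 at least 2-fold lower, beside 6.6% and 5.82% of all genes. Grin1, at 1.76 (1.46 to 2.1), passed 2-fold in cells with at least 5000 UMIs and in thinned cells. Interneurons without any UMI of the excitatory markers, a rule added after the values were seen, gave 13.4 for Gria1 and 21.7 for Grin3a. Of the 60 listed genes, 47 were at that level, 16 higher and 3 lower, with 4 of 7 genes of kainate receptors and their partners and 3 of 10 AMPA auxiliary genes among the higher ones. The AMPA auxiliary Cacng3 was 37.7 times (26.4 to 54.0) higher, the kainate subunit Grik1 36.9 times (27.8 to 49.0) and the kainate receptor partner Neto1 25.3 times (21.5 to 29.7), and Cnih3 was 5.75-fold (3.58 to 9.88) and Camk2b 4.72-fold (3.95 to 5.68) lower.

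The higher Gria1 and Grin3a of interneurons were largely those of the MGE type. Gria4 was above layer neurons in CGE interneurons as well. MGE over CGE interneurons gave a ratio of 30.7 (16.0 to 67.4) for Gria1, from 548 and 9 UMIs, and of 20.3 (10.6 to 44.6) for Grin3a, from 362 and 9 UMIs. Gria3 had a ratio of 21.1 with a wide interval (5.67 to 177), since CGE cells held 2 UMIs. Grin2a had 5.62 (2.45 to 15.9) and Gria4 2.61 (1.77 to 3.98). In CGE interneurons the ratios of Gria1, Gria3 and Grin2a to the vascular and microglial cells had intervals that included 1, so their levels there could not be told from free RNA. Gria2 was lower, at 0.787 (0.713 to 0.870), but came to 1.03 when each gate asked for 1 more marker. Grin2d, at 1.44 (0.786 to 2.80), did not differ beyond counting error, and came to 0.703 in thinned cells and 2.73 without cells with an excitatory marker. Both types were far above layer neurons in this gene. Family totals had ratios of 1.32 (1.21 to 1.44) for AMPA and 2.49 (2.14 to 2.91) for NMDA. All 9 members had enough tags, with 5 at least 2-fold higher and 0 lower, beside 12.3% and 10.1% of all genes. Over the alternatives the ratio of Gria1 ran from 21.5 to 53.7 and that of Grin3a from 13.3 to 44.7. That of Gria3 ran from 10.1 to 32.3 over the 8 of 9 alternatives that gave a finite ratio. Grin2a reached 15.8 in thinned cells. CGE interneurons held 6 Grin2a UMIs before thinning, so the size of that ratio is not read. Grin1, at 1.86 (1.19 to 2.99), reached 2.58 without cells with an excitatory marker. The list of 60 genes had 47 at that level, 21 higher and 5 lower, and 6 of 11 AMPA auxiliary genes were higher. The extremes were Grm3 at 111 (19.8 to 4415), Neto1 at 36.6 (14.2 to 135) and Grm5 at 14.3 (7.87 to 28.9) on one side and the scaffolds Dlg1, 7.15-fold (2.56 to 24.6) lower, and Dlgap3, 2.09-fold (1.31 to 3.35) lower, on the other.

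MGE interneurons were not uniform. A split by Sst, which encodes somatostatin and is one of the 4 MGE markers, was made after values had been seen and gave 76 cells with a Sst UMI and 91 without. Grin3a was at 453 CPM (404 to 506) with Sst and 96.9 CPM (72.4 to 127) without it. Grin2a stood at 80.3 CPM (60.5 to 105) and 22.4 CPM (11.6 to 39.1). Gria4 went the other way, at 89.0 CPM (68.1 to 114) with Sst and 186 CPM (152 to 227) without, as did Gria2 at 683 CPM (623 to 748) and 1019 CPM (936 to 1109). Gria1 was high in both, at 432 CPM (384 to 484) and 470 CPM (413 to 531). Grin3a thus differed between the sets of cells beyond counting error and Gria1 did not. In single cells the tenth of MGE interneurons with most tags held 55.2% of Grin3a UMIs and 28.5% of Gria1 UMIs. The cells with a Sst UMI were deeper, with a median of 8682 UMIs against 6061, and the part of depth in the split was not tested.

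OPCs were set beside the non-dividing progenitors, which are radial glia or astrocytes by their gate. The AMPA total was 2.13 times (1.95 to 2.33) higher in OPCs, from 1095 and 513 CPM, and the NMDA total 1.98 times (1.56 to 2.52), from 149 and 75.5 CPM. Gria2 was 2.20 times (2.0 to 2.42) higher, and this came to 1.98 in thinned cells. Grin3a was 5.33 times (3.28 to 8.98) higher, Grin1 6.28 times (2.62 to 17.3) and Gria4 3.24 times (1.57 to 6.96), the last from 23 and 13 UMIs. The progenitor levels of Grin1 and Gria4 were 1.79 times (0.230 to 80.5) and 1.66 times (0.376 to 15.1) those of the vascular and microglial cells and could not be told from free RNA, and the sizes of these ratios rest on them. Grin2b did not differ beyond counting error, with a ratio of 0.863 (0.601 to 1.22). Grin2d had 4 UMIs in OPCs and 0 in the progenitors, where 3 counts would be 1.68 CPM. Of 6 members with enough tags, 4 were at least 2-fold higher and 0 lower, beside 14.3% and 13.7% of all genes. The ratio of Grin1, from 24 and 7 UMIs, ran from 3.98 to 11.5 over the alternatives and that of Gria4 reached 5.21 without cells with an excitatory marker. Among the 60 listed genes, 44 were at that level, 16 higher and 8 lower, and the 11 AMPA auxiliary genes gave 6 of the higher and 4 of the lower. The AMPA auxiliary Cacng4 was 16.9 times (12.4 to 23.7) higher at 417 CPM (377 to 459) in OPCs, Neto1 49.4 times (13.0 to 419) and Grik3 14.7 times (5.20 to 57.0). The AMPA auxiliaries Shisa9 and Gsg1l lay on the other side, the first 25.9-fold (6.99 to 217) lower and the second at 40.3 CPM in progenitors with no UMI in OPCs, and Grm3 was 5.69-fold (2.63 to 14.7) lower.

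The small classes held mixtures of their own. Cajal-Retzius cells, the early neurons of the cortical surface, had Gria2 at 285 CPM (232 to 346), the lowest of any neuron class, beside Gria1 at 111 CPM (79.0 to 152), Gria4 at 82.6 CPM (55.3 to 119) and Grin3a at 51.3 CPM (30.4 to 81.0). Their Grin2b, at 22.8 CPM, was likewise the lowest of the 15 classes and could not be told from free RNA, with a ratio to the vascular and microglial cells of 1.73 (0.527 to 6.06), and Grin1 took 41.2% of their NMDA tags. Interneurons of neither type lay between the MGE and CGE types for Gria1, at 106 CPM (72.3 to 149). These values rest on 20 Cajal-Retzius cells and 69 interneurons. The Cajal-Retzius gate set no cap on markers of other classes, and its cells were deep, with a median of 18868.5 UMIs. Mixed cells in this class were not excluded beyond leaving out cells that met another gate.

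A working NMDA receptor needs Grin1 with another subunit, and tags of Grin1 and of a Grin2 gene were seen in the same cell in 51% of layer V, 35.0% of layer VI, 41.4% of layer IV and 17.9% of layer II/III neurons. The share was 32.9% in MGE and 13.6% in CGE interneurons. It was 5.10% in newborn neurons, 5.51% in OPCs and 0.803% in non-dividing progenitors. These shares were not thinned, and layers IV and V were the deepest of these classes, so their order is not read as a difference between cells.

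The genes whose levels over the 15 classes were most like those of each member were found by the Pearson correlation of log2(CPM + 10) among 10576 genes that are neither markers nor members. All classes come from the same library, so the values are a description only. The closest were Blcap (0.869) and Ankrd50 (0.864) for Gria1, Gpr45 (0.901) for Gria2, Dlc1 (0.798) and Tspan6 (0.793) for Gria3, and Vstm2a (0.910) and Socs5 (0.874) for Gria4. For the NMDA genes they were Dnm3 (0.966) and Tspyl4 (0.965) for Grin1, Lrfn5 (0.879) and Kcnh3 (0.871) for Grin2a, Myo9a (0.95) and Tenm2 (0.945) for Grin2b, Adamts17 (0.945) and Gm37769 (0.921) for Grin2d, and Elfn1 (0.852) and Glce (0.833) for Grin3a. Next in each order stood Lin28b (0.855), Fbxo11 (0.887), Ephx4 (0.784), Dpp10 (0.868), Acsl1 (0.956), Zbtb34 (0.866), Pja1 (0.937), Dlx1as (0.907) and Nxph2 (0.808), in the same order of members.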

How the data were processed

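For 1 WT library, the authors deposited a matrix of UMI counts by gene and cell, not normalized, and a table of UMI counts and gene numbers per cell whose values equalled the sums in all 11062 cells. The processing notes of the submitters name STAR, Cell Ranger 2 and Seurat and the build mm9, while the methods of the study name a v3.1 kit; the annotation and the strand setting are not given in the sources used here. Sequences and their GRCm38 coordinates come from GENCODE M21 and were not converted. UMIs do not count PCR copies, and free RNA and doublets remain; no doublet caller was run, and cells that met more than 1 gate were left out.

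Cells were gated on 99 markers, all 99 of which were found in the table. A marker counted with 1 UMI, and cells needed 2000 UMIs without the 37 mitochondrial genes, which took 3.90% of all UMIs. OPCs needed Pdgfra and 2 other OPC markers. Dividing progenitors needed 3 cell cycle markers and 2 markers of radial glia or astrocytes, and non-dividing progenitors 4 of the latter. Newborn neurons needed Eomes and 2 other markers, and inhibitory cells 3 markers, with 2 of the MGE or CGE markers for a type. Excitatory cells needed 2 markers. Those with at least 3 layer VIb markers were set to layer VIb first. The others took the layer with most markers, at least 3 and without a tie. Layer IV needed 2 Rorb UMIs and Inhba. Each gate other than that of Cajal-Retzius cells also capped the markers of other classes. Up to 2 excitatory markers were thus allowed in inhibitory cells, OPCs and progenitors. Cajal-Retzius cells needed 3 of their markers, with no such cap.

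UMIs were summed by class and compared as CPM in Python 3.11.15 with numpy 2.4.6, scipy 1.17.1, pandas 2.3.3 and Biopython 1.88. Ratios have exact conditional binomial intervals. All genes with 10 CPM in 1 of the 2 classes went through the same ratio, and 2-fold was the limit for counting; no p-values were computed from 1 library. The scripts were tested on simulated data. The median log2 ratio over all genes was within 0.09 of 0 in each comparison. Members and gene lists were chosen with earlier results of these data known. The named genes are the members, the 3 highest and 3 lowest of the related list past 2-fold with 20 CPM, and the 3 most alike, of which 1 is not reported here. In each comparison 8 alternatives were run, and the genes past 2-fold were also counted with no minimum CPM. The Sst split, the genes that checked the classes, the pairs of classes compared outside the 6 comparisons, the ratios within layers and the alternative without excitatory markers were chosen after seeing the data.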

Additional observations from a re-analysis of the deposited data

How the results depend on the processing

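The library gives no replicate error, and no alternative can stand in for it. No paired analysis was possible because only 1 library was analysed. Of 108 alternative values of the 12 family ratios, 72 stayed within the counting interval and 1 changed direction. Classes rest on marker UMIs, so shallow cells enter some gates more easily than others, and low members such as Grin2d and Grin3a in layer neurons are limited by their few UMIs. The cause was not tested for any value below.

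With cells thinned to 2000 UMIs, the AMPA ratio came to 1.35 for layer over newborn neurons, 0.480 for deep over upper layers, 0.758 for interneurons over layer neurons and 1.52 for MGE over CGE interneurons, and the NMDA ratio to 3.59 for layer over newborn neurons, 1.60 for deep over upper layers and 1.56 for older over younger cells. The mean of per-cell CPM gave AMPA ratios of 1.32 for layer over newborn neurons, 0.497 for deep over upper layers and 0.762 for interneurons over layer neurons, and NMDA ratios of 3.82 for layer over newborn neurons, 1.64 for deep over upper layers and 1.53 for older over younger cells. In cells with at least 5000 UMIs the AMPA ratio was 0.578 for deep over upper layers, 0.565 for older over younger cells and 0.946 for interneurons over layer neurons, where the NMDA ratio was 1.44. Leaving out cells above 25000 UMIs gave AMPA ratios of 1.16, 0.575 and 0.873 for layer over newborn, deep over upper and interneurons over layer neurons, and an NMDA ratio of 1.5 for deep over upper layers. Median-of-ratios scaling gave AMPA ratios of 1.2, 0.542 and 0.866 in the same 3 comparisons; it moved every ratio by -0.13 on the log2 scale for OPCs over progenitors and by 0.13 for layer over newborn neurons. With 1 more marker in each gate, the NMDA ratio was 1.48 for deep over upper layers and 2.11 for MGE over CGE, and the AMPA ratio 1.71 for MGE over CGE and 2.41 for OPCs over progenitors. Without excitatory markers, a choice made after seeing the data, the AMPA ratio was 1.48 for MGE over CGE and 2.47 for OPCs over progenitors, and the NMDA ratio 2.66 for the latter. Within layers, also chosen after seeing the data, the AMPA ratio of older over younger cells was 0.583 in layer II/III, 0.748 in layer IV and 0.570 in the other upper-layer neurons, and the NMDA ratio was 1.55 in layer II/III and 0.964 in layer IV, the change of direction, where its interval includes 1.

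Among single members, 21 of 474 alternative values crossed 1. In 18 of these, over 10 ratios, the interval of the reported ratio already included 1. The other 3 changed the direction of a ratio whose interval left out 1: Grin2b for older over younger cells came to 0.917 within layer IV, Gria4 for deep over upper layers came to 1.11 in thinned cells, and Gria2 for MGE over CGE interneurons to 1.03 with 1 more marker. With no minimum CPM, the share of all genes past 2-fold in either direction went from 18.9% to 30.8% for layer over newborn neurons, from 8.30% to 21.8% for deep over upper layers, from 5.48% to 19.0% for older over younger cells and from 12.4% to 26.9% for interneurons over layer neurons, and stayed within 1.5 times for the other comparisons.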
